A study of Mus musculus with 12 samples.

Results

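Cathepsins are the main proteases of the lysosome, and the genes described here are cathepsins S, B, C, D, H, K, L and Z (Ctss, Ctsb, Ctsc, Ctsd, Ctsh, Ctsk, Ctsl and Ctsz), legumain (Lgmn) and the cathepsin inhibitor cystatin C (Cst3). These 10 genes were chosen by name among the 23420 rows of the count table, with earlier results of these data known. All 10 were among the 13095 genes that passed the filter on low counts and were tested. The tumors were of B16-F10, a pigmented melanoma line of C57BL/6 origin, grown under the skin of male C57BL/6J mice, so that every tumor descended from the same cell line. Nonobese mice received a control diet, and obese mice a Western diet with 0.2% cholesterol fed for 15 weeks, to a weight gain of 50%, with diets begun at 4 to 5 weeks of age. All mice received an antibody at 10 mg/kg, 3 times a week, either isotype control or anti–PD-1, which blocks an inhibitory receptor of T cells, and tumors were taken on day 16. Each of the 4 combinations of diet and antibody held 3 tumors, every tumor from its own mouse, and bulk RNA was sequenced.

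Cathepsins are made as inactive precursors, sorted to the lysosome and activated there by acid and by other proteases. Most are cysteine proteases that cystatins block, cathepsin D is an aspartic protease, and legumain cuts after asparagine and trims cathepsin precursors. Macrophages, dendritic cells and B cells use cathepsin S to cleave the invariant chain from MHC class II molecules, which frees these molecules to bind peptides, whereas cathepsins B, D, L and Z are made by nearly every cell type, pigment cells included. The comparison of interest was therefore between Ctss and the broadly expressed members, across diets and treatments.

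Total counts per tumor ranged from 14022929 to 33871843. The 10 genes together held between 0.358% and 0.509% of the normalised counts of a tumor. Levels are given as CPM (counts per 1e6 counts), scaled by the trimmed mean of M-values (TMM). Changes were tested with edgeR's quasi-likelihood F-test in one model of all 12 tumors, and a gene is said to have risen or fallen only where its fold change exceeded 2 at an unadjusted P below 0.05, the thresholds of the study's methods. The false discovery rate (FDR) over all genes tested is given beside, and for 1 gene alone an exact permutation of 3 tumors against 3 has a smallest P of 0.1. The 6 pigment-cell markers Dct, Mlana, Pmel, Sox10, Tyr and Tyrp1 summed to between 24324 and 29810 CPM in every tumor, and none of them passed the thresholds in any of the 5 comparisons below. In bulk tissue, fewer cells of a type and less RNA per cell cannot be told apart.

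The region around the start site is shown for 3 genes that stand for the patterns below: Ctss, Ctsc, whose levels ran closest to those of Ctss among the members, and Ctsd, the most abundant member. Each sequence is the RefSeq promoter window of GRCm38.p6, 250 bases before to 50 bases after the start site used for that window, written 5′ to 3′ on the strand of the gene. Ctss lies on the plus strand (window chr3:95526536-95526835), Ctsc on the plus strand (chr7:88277835-88278134) and Ctsd on the minus strand (chr7:142387778-142388077). Capitals mark matches, on either strand, to 5 searched motifs: CACGTG (E-box), TCACGTGA (core of the lysosomal gene element bound by TFEB, which contains the E-box), GAAANNGAA (interferon-stimulated response element), TTCNNNGAA (gamma-activated site) and GAGGAAG (core bound by PU.1, the macrophage and B cell factor).
Ctss: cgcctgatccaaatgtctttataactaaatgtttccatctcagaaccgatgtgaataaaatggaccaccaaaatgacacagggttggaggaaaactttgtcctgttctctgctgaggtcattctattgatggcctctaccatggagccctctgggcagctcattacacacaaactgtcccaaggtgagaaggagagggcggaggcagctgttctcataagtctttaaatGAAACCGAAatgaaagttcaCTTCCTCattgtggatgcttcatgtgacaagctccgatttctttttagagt
Ctsc: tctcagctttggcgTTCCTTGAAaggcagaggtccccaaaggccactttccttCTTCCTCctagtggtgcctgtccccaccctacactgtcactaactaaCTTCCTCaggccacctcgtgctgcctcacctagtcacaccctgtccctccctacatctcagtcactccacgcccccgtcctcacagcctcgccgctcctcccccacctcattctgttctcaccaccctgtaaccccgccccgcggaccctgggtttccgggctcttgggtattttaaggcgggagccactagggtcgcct
Ctsd: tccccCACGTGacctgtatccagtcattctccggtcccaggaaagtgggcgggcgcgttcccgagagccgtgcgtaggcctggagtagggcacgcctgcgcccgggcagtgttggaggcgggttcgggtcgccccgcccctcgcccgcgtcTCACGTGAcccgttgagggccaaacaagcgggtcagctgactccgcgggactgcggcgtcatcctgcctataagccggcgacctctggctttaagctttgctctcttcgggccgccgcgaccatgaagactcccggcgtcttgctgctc

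Positions are counted from the start site of the window, which is the 5′ end of the gene for Ctss, Ctsd, Ctsk, Cst3 and Ctsz but lies 61 bases inside the gene as annotated for Ctsc and 252 bases inside for Ctsl. In the Ctss window, GAAANNGAA matched at position -21 and GAGGAAG on the opposite strand at -1. The Ctsc window held TTCNNNGAA at -236 and GAGGAAG on the opposite strand at -197 and -150. The Ctsd window held CACGTG at -245 and -98, the latter inside a TCACGTGA at -99. Of all 32851 promoter windows of this length, 8.56% held GAAANNGAA, 8.3% TTCNNNGAA, 13.6% GAGGAAG, 7.15% CACGTG and 0.974% TCACGTGA. Windows were at hand for 8 of the 10 genes. Among the other 5, Ctsk held GAGGAAG at -233 and -59, Ctsl held CACGTG at -236, within the annotated gene, Lgmn held CACGTG at -49 in the second of its 2 windows, whose start site lies 636 bases inside the gene, and Cst3 and Ctsz held none of the 5. These matches are descriptions of letters, and binding was not measured.

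The genes were spread over 7 chromosomes in the RefSeq annotation of GRCm38.p6, and the files give gene counts without coordinates. Ctsk (chr3:95499210-95509387) and Ctss (chr3:95526786-95556405) are neighbours on the plus strand, 17398 bases apart. Ctsc lies at chr7:88278024-88315861 and Ctsd at chr7:142375910-142387827. Cst3 lies at chr2:148871722-148875512 and Ctsz at chr2:174427494-174439039. Ctsb lies at chr14:63122462-63145923, Ctsh at chr9:90054267-90076095, Ctsl at chr13:64361890-64370772 and Lgmn at chr12:102394082-102439728. In the GENCODE M21 annotation, 38.0% of the exon bases of Ctsd are shared with Gm49369 on the same strand, 16.3% of those of Ctsb with Fdft1 on the opposite strand, and 28.2% of those of Ctsl with the antisense gene Gm47123 and 6.4% with the pseudogene Gm49230 on the same strand. Reads from the shared stretches could be counted for either gene or dropped, so levels of these 3 genes are uncertain, and for overlaps on opposite strands only if the counting ignored strand. The overlap of Ctsz with Nelfcd on the opposite strand is 0.694%, and the exons of Ctss, Ctsc, Ctsh, Ctsk, Lgmn and Cst3 are shared with no other gene.

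Per length of exon, the aspartic protease Ctsd was the most abundant member, with a median over the 12 tumors of 897 CPM per kilobase. Ctsz followed at 459, Ctsb at 270 and the inhibitor Cst3 at 197 CPM per kilobase. Lgmn was at 60.1 CPM per kilobase, and Ctsl and Ctss stood close together at 28.8 and 25.9. The ranges over tumors of the first 2 did not overlap with those of any other member, whereas those of Ctsb (192 to 298) and Cst3 (143 to 230) did. Ctss ranged from 12.2 to 64.6 CPM per kilobase, the widest range of the 10 as a ratio of highest to lowest, which spanned the whole range of Ctsl (21.7 to 34.9) and overlapped with that of Lgmn (49.3 to 74.4). Ctsh, Ctsk and Ctsc had medians of 11.3, 10.5 and 9.62 CPM per kilobase and overlapping ranges, and their order depended on the exons counted. With the exons of all transcripts, an alternative chosen after seeing the data, it was Ctsk (10.5), Ctsc (8.83) and Ctsh (4.05).

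**Figure D1:**
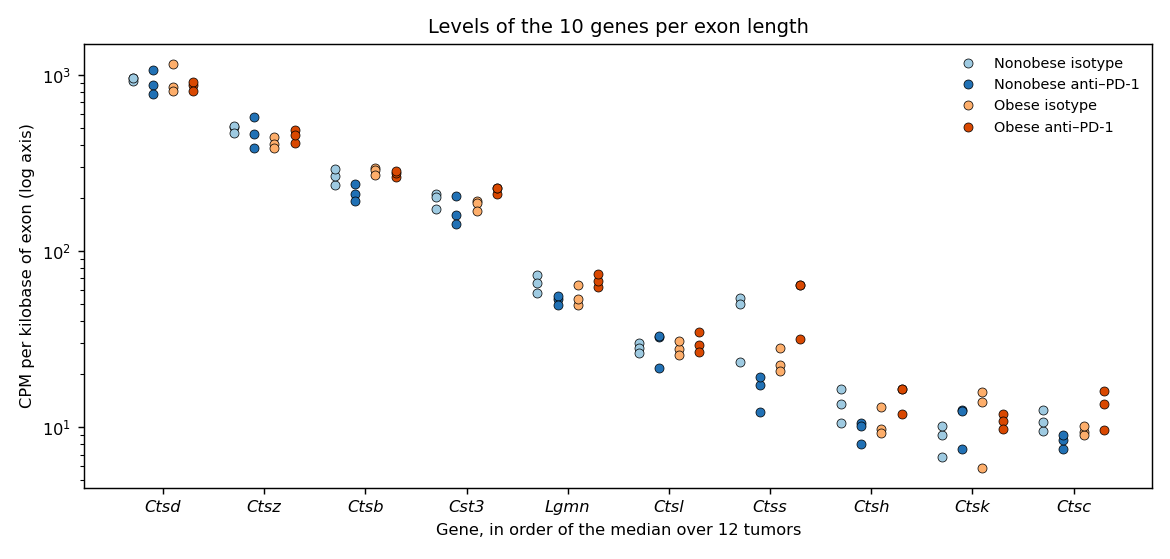
Level of each gene in CPM per kilobase of exon on a log axis, one point per tumor, coloured by group, with genes ordered by the median over 12 tumors. Ctsd had the highest levels (median 897), and Ctss had the widest spread on the log axis (12.2 to 64.6).

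In the edgeR fit described above, Ctss, the endopeptidase of antigen-presenting cells, was the only member that passed both thresholds in any comparison. It fell with anti–PD-1 in nonobese mice, rose with anti–PD-1 in obese mice, and was higher in obese than in nonobese mice under anti–PD-1. Its levels in the nonobese isotype tumors were 32.0, 73.8 and 68.3 CPM (58.0 ± 22.7, SD, n = 3). In the nonobese anti–PD-1 tumors they were 16.5, 23.5 and 26.3 CPM (22.1 ± 5.02, n = 3). The 2 groups did not overlap, although the lowest isotype tumor stood near the anti–PD-1 tumors and far below the other isotype tumors. Levels in the obese isotype tumors were 30.5, 28.5 and 38.4 CPM (32.5 ± 5.27, n = 3). In the obese anti–PD-1 tumors they were 43.0, 87.7 and 87.4 CPM (72.7 ± 25.7, n = 3). These groups did not overlap either, and the first obese anti–PD-1 tumor was only slightly above the highest isotype tumor.

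In nonobese mice, Ctss fell by 1.39 on the log2 scale with anti–PD-1 (SE 0.31, unadjusted P = 0.000651, 2.62-fold lower). By P it was the 8th of the 13095 genes in that comparison, but its edgeR FDR was 0.833. In obese mice, it rose by 1.16 (SE 0.31, unadjusted P = 0.00242, 2.24-fold), with an edgeR FDR of 0.281. Without 1 tumor the FDR of this rise ranged from 0.0456 to 0.809. It was below 0.05 only without the first obese anti–PD-1 tumor. The fall and the rise passed the thresholds in each of the 12 fits that left out a tumor, with log2 changes of -1.68 to -1.17 in nonobese and 1.02 to 1.45 in obese mice. The difference between the 2 responses was 2.55 on the log2 scale (SE 0.44, 95% confidence interval 1.60 to 3.51, unadjusted P = 5.88e-05, edgeR FDR = 0.0855). It was the 9th gene of all by P in that test, and the difference ranged from 2.35 to 2.85 when a tumor was left out. Its FDR depended on the fit. It was 0.00129 with DESeq2 and 0.0115 in edgeR with all genes of at least 1 count. With a block for the replicate number, although these numbers mark different mice, it was 0.00654. Under the other 3 settings it lay between 0.0727 and 0.0904. Without 1 tumor it ranged from 0.00644 to 0.312 and was below 0.05 without the first nonobese isotype (0.00644), the third nonobese anti–PD-1 (0.0427) or the first obese anti–PD-1 tumor (0.0110).

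Between diets, Ctss was 3.29-fold higher in obese than in nonobese mice under anti–PD-1 (log2 difference 1.72, SE 0.32, 95% confidence interval 1.04 to 2.40). The unadjusted P was 0.000106 and the edgeR FDR 0.0408, and Ctss was among the 0.359% of genes tested that were higher at an FDR below 0.05. The fold change and unadjusted P passed the thresholds in all alternatives, but the FDR did not stay below 0.05. It was 0.157 in the fit of only the 6 tumors compared. Leaving out 1 tumor kept it below 0.05 in 3 of 12 cases, namely without the first nonobese isotype tumor (0.0174), the third nonobese anti–PD-1 tumor (0.0411) or the first obese anti–PD-1 tumor (0.00541). Without each of the other 9 it lay between 0.0551 and 0.236. Under isotype the direction was opposite, with Ctss lower in obese mice by 0.84 on the log2 scale (log2 difference -0.84, SE 0.31, unadjusted P = 0.0183, edgeR FDR = 0.309), short of a 2-fold change, and the groups overlapped. The P of this difference rose above 0.05 without the second or the third nonobese isotype tumor (-0.63 and -0.72) or the first or second obese isotype tumor (-0.81 and -0.76), whereas without the first nonobese isotype tumor the difference was -1.13 and passed both thresholds.

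**Figure D2:**
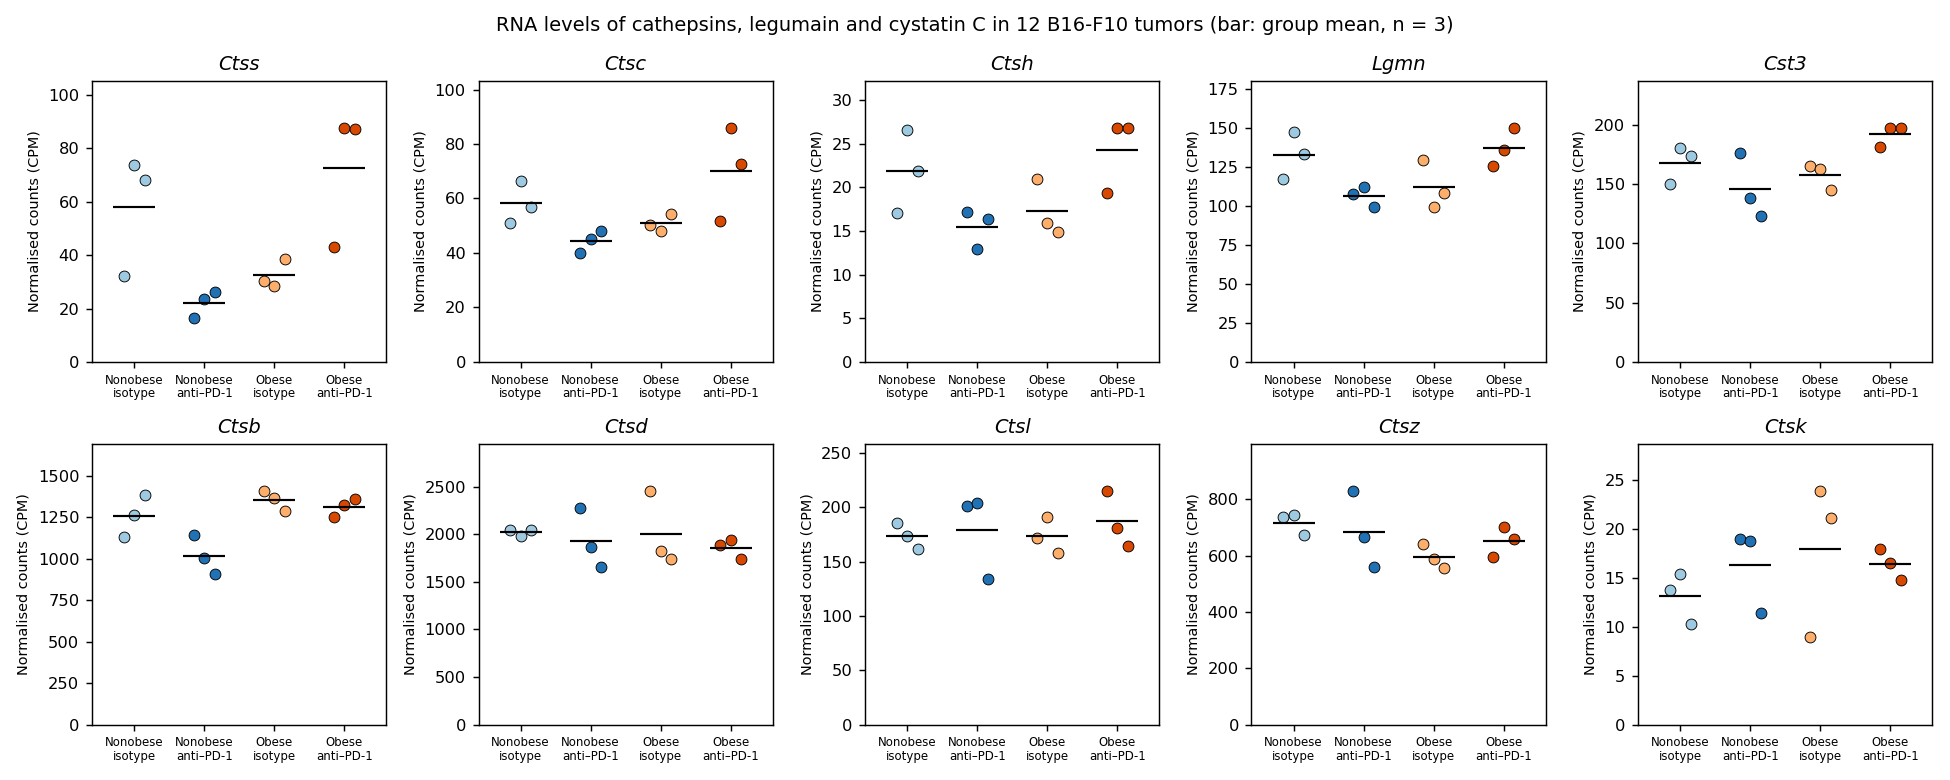
Normalised counts (CPM) of each of the 10 genes in the 12 tumors, with points for tumors, bars for group means (n = 3) and axes from 0. The lowest Ctss levels (16.5 to 26.3 CPM) are those of the nonobese anti–PD-1 tumors and the highest (87.7 and 87.4 CPM) those of 2 obese anti–PD-1 tumors, while Ctsd shows no such order.

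Over all 10 members, 5 were lower at an unadjusted P below 0.05 with anti–PD-1 in nonobese mice (Ctss, Ctsb, Ctsc, Ctsh and Lgmn), against 3.59% of all genes tested. Ctss alone also passed the 2-fold limit, as did 2.31% of all genes in that direction, and 3 members (Ctss, Ctsc and Lgmn) had groups that did not overlap, against 5.37% of all genes. The median change of the members was -0.26, against 0.02 over all genes. The count of 5 fell to 2, 1 and 2 without the second nonobese isotype, the third nonobese isotype and the second nonobese anti–PD-1 tumor. In obese mice, 5 members were higher at an unadjusted P below 0.05 (Ctss, Ctsc, Ctsh, Lgmn and Cst3), against 4.3% of all genes. Again Ctss alone passed both thresholds, as did 2.24% of genes, and 2 members (Ctss and Cst3) had groups without overlap, against 5.45%. The median change was 0.21, against -0.01 over all genes. Here the count of 5 fell to 2, 2, 1 and 2 without the second obese isotype, the third obese isotype, the second obese anti–PD-1 and the third obese anti–PD-1 tumor.

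Under anti–PD-1, 6 members were higher in obese than in nonobese mice at an unadjusted P below 0.05 (Ctss, Ctsb, Ctsc, Ctsh, Lgmn and Cst3), against 5.71% of all genes. The same 6 had groups that did not overlap, against 6.54% of genes, and 1 passed both thresholds, against 3.69%. The count was 5 or 6 when any tumor was left out, since Lgmn missed P below 0.05 without the third obese anti–PD-1 tumor (0.30). Under isotype, 1 member was lower in obese mice at an unadjusted P below 0.05 (Ctss), against 6.17% of genes. By edgeR 0 members passed both thresholds there, against 1.12% of genes, and Ctsz alone had groups that did not overlap, against 9.02%. DESeq2 also gave 0 members past both thresholds in that comparison. In the difference between the responses, 5 members were positive at an unadjusted P below 0.05 (Ctss, Ctsc, Ctsh, Lgmn and Cst3), against 7.01% of genes, and 1 passed both thresholds, against 4.93%. These comparisons share groups of tumors, so their counts are not independent of each other. The members were chosen with earlier results of these data known, so the counts are descriptions.

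**Figure D3:**
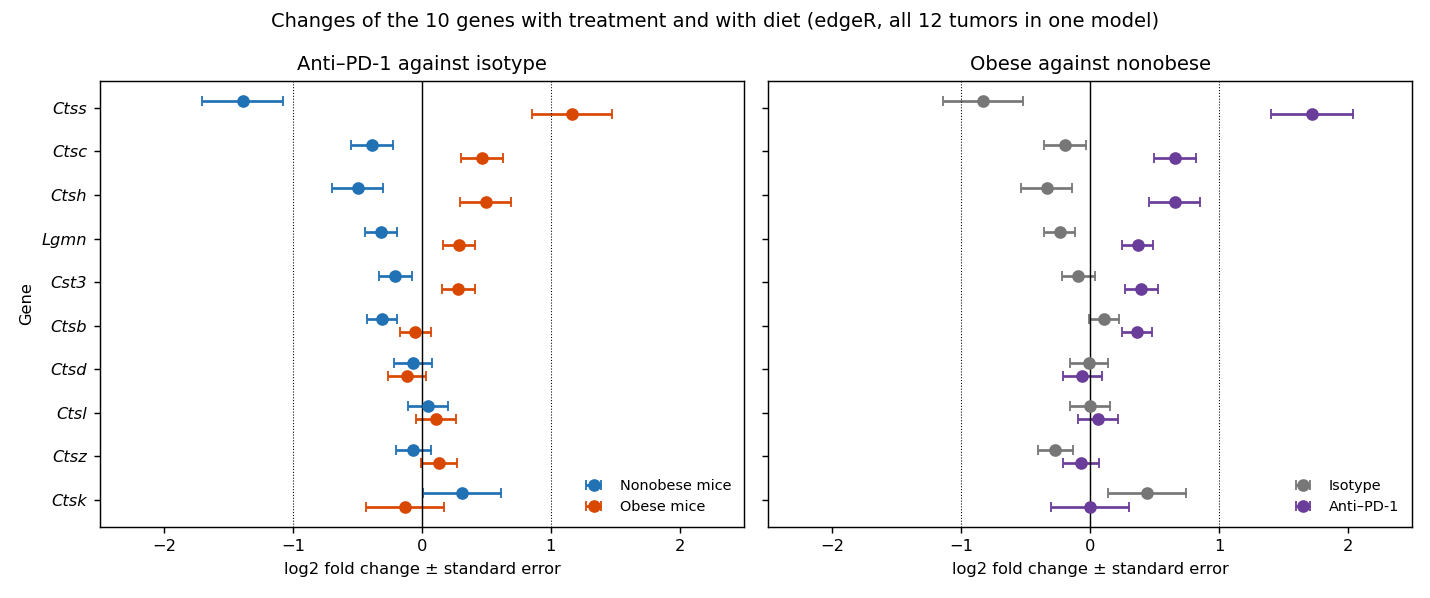
Log2 fold change with its standard error for each gene, with anti–PD-1 against isotype on the left and obese against nonobese on the right; dotted lines mark a 2-fold change. Ctss lies beyond the dotted line at -1.39 in nonobese and 1.16 in obese mice and at 1.72 between diets under anti–PD-1, and Ctsd stays within 0.12 of 0.

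For Ctsl and Ctsk, no difference between groups reached an unadjusted P below 0.05 in the fit of all 12 tumors. Ctsl, which also matures proteins in the lysosomes of most cells, had group means of 174 ± 11.5 and 180 ± 39.6 CPM in the nonobese isotype and anti–PD-1 tumors. In the obese groups the means were 174 ± 16.5 and 187 ± 25.8 CPM (n = 3 each). Its levels in the 12 tumors lay between 134 and 216 CPM and every group overlapped with every other. Its log2 changes with anti–PD-1 were 0.05 (95% confidence interval -0.29 to 0.38) in nonobese and 0.11 (-0.23 to 0.44) in obese mice. Ctsk, the collagen-degrading cathepsin best known from osteoclasts, was uneven within a group. Its obese isotype tumors had 8.92, 23.9 and 21.2 CPM, the lowest and the highest value of all 12 in the same group. Its changes with anti–PD-1 were 0.31 (SE 0.30) in nonobese and -0.13 (SE 0.30) in obese mice, neither beyond the spread of the tumors, although without the first obese isotype tumor the difference between diets under isotype went from 0.44 to 0.75 (unadjusted P = 0.00551).

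Ctsb, which acts both within chains and at their carboxy end, had 1132, 1267 and 1383 CPM in the nonobese isotype tumors and 1145, 1003 and 910 CPM in the nonobese anti–PD-1 tumors. The obese isotype tumors had 1412, 1368 and 1291 CPM and the obese anti–PD-1 tumors 1250, 1324 and 1358 CPM. The 3 nonobese anti–PD-1 tumors were below every obese tumor, and they overlapped with the nonobese isotype tumors by 1 tumor. Ctsb was lower with anti–PD-1 in nonobese mice by 0.31 on the log2 scale (log2 change -0.31, SE 0.12, unadjusted P = 0.0205), and its change in obese mice was -0.05 (SE 0.12). The first of these values missed P below 0.05 without the third nonobese isotype (-0.24) or the second nonobese anti–PD-1 tumor (-0.30). Under anti–PD-1 it was 1.29-fold higher in obese mice (log2 difference 0.36, unadjusted P = 0.00805, edgeR FDR = 0.249). Its FDR there was below 0.05 in 1 of 7 other settings (0.0461) and in 0 of 12 fits without 1 tumor. The difference between the 2 responses was 0.26 (95% confidence interval -0.10 to 0.61), which does not separate them.

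Among the exopeptidases, Ctsc and Ctsh had the same directions as Ctss in all 4 comparisons, at smaller size, and Ctsz did not. Ctsc removes dipeptides from amino ends and activates the granule proteases of T cells, neutrophils and mast cells. It had 50.9, 66.6 and 57.0 CPM in the nonobese isotype tumors and 40.1, 45.2 and 48.0 CPM in the nonobese anti–PD-1 tumors, which did not overlap. The obese isotype tumors had 50.2, 47.9 and 54.5 CPM and the obese anti–PD-1 tumors 51.6, 85.9 and 72.5 CPM. Within the obese mice, the first anti–PD-1 tumor lay inside the isotype range and the other 2 above it. The log2 changes of Ctsc with anti–PD-1 were -0.39 in nonobese (SE 0.16, unadjusted P = 0.0319) and 0.46 in obese mice (SE 0.16, unadjusted P = 0.0136). The nonobese value missed P below 0.05 without the second (-0.28) or the third (-0.40) isotype or the first (-0.32) or second (-0.40) anti–PD-1 tumor, and the obese value without the second anti–PD-1 tumor (0.30). The difference between responses was 0.85 (SE 0.23, unadjusted P = 0.00254, edgeR FDR = 0.151), and 1.05 without the first obese anti–PD-1 tumor. Between diets under anti–PD-1, the FDR of Ctsc was below 0.05 in 1 of 7 other settings (0.0154). Without 1 tumor it was below 0.05 in 1 of 12 fits (0.0107).

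Ctsh, an aminopeptidase of lysosomes and of the surfactant-making cells of the lung, was a low-level member. It had 17.02, 26.6 and 21.9 CPM in the nonobese isotype tumors and 17.1, 12.99 and 16.4 CPM with anti–PD-1. The obese isotype tumors had 20.9, 15.9 and 14.9 CPM, and the obese anti–PD-1 tumors 19.3, 26.8 and 26.8 CPM. Both pairs of groups overlapped by 1 tumor. Its log2 changes were -0.50 in nonobese (SE 0.20, unadjusted P = 0.0249) and 0.49 in obese mice (SE 0.20, unadjusted P = 0.0263). P rose above 0.05 without the second (-0.33) or the third (-0.50) nonobese isotype or the second nonobese anti–PD-1 tumor (-0.38), and in obese mice without the second (0.45) or the third (0.41) isotype or the second or the third (0.43 each) anti–PD-1 tumor. The difference between responses was 0.99 (SE 0.28, unadjusted P = 0.00339, edgeR FDR = 0.169), which is 1.99-fold, just short of the 2-fold limit. It passed both thresholds with DESeq2 (1.02), RLE scaling (1.02), at least 10 counts in every tumor (1.05) and the current form of glmQLFit (1.00). Ctsz, a carboxypeptidase, ranged from 557 to 831 CPM over the 12 tumors. Its changes with anti–PD-1 were -0.07 (SE 0.14) in nonobese and 0.13 (SE 0.14) in obese mice, and the 3 obese isotype tumors, at 557 to 641 CPM, were below the nonobese isotype tumors, at 672 to 744 CPM (log2 difference -0.27, unadjusted P = 0.0704). P fell below 0.05 with DESeq2 (-0.28), at least 10 counts in every tumor (-0.30) and only the 6 tumors compared (-0.30). It also did so without the first or the third nonobese anti–PD-1 (-0.28 each) or the first obese isotype tumor (-0.35).

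Ctsd, the aspartic protease and the member with the most counts, differed little between groups. Its mean levels were 2022 ± 35.6 CPM (nonobese isotype), 1929 ± 313 CPM (nonobese anti–PD-1), 2005 ± 394 CPM (obese isotype) and 1851 ± 101 CPM (obese anti–PD-1; SD, n = 3 each). The first tumor was the highest in the nonobese anti–PD-1 group, at 2271 CPM, and in the obese isotype group, at 2458 CPM. All 4 log2 differences lay between -0.12 and -0.01, and the 95% confidence interval of the difference between responses (-0.05) ran from -0.50 to 0.40. Every tumor had at least 26032 counts of Ctsd. Relative to the mean log2 CPM of Ctsb, Ctsd, Ctsl and Ctsz in the same tumor, the log2 CPM of Ctss was -3.78 ± 0.66 in the nonobese isotype and -4.99 ± 0.58 in the nonobese anti–PD-1 group. In the obese isotype and anti–PD-1 groups it was -4.49 ± 0.33 and -3.41 ± 0.60 (SD, n = 3 each). Set against the broadly expressed cathepsins, Ctss thus had the same order of group means as in CPM, and this is a description without a test.

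Legumain and cystatin C, an activator and an inhibitor of the cysteine cathepsins, showed small differences in the directions of Ctss. Lgmn had 117, 148 and 133 CPM in the nonobese isotype tumors and 108, 112 and 99.4 CPM with anti–PD-1, without overlap. The obese isotype tumors had 130, 99.5 and 108 CPM and the obese anti–PD-1 tumors 126, 136 and 150 CPM, where the highest isotype tumor exceeded the lowest anti–PD-1 tumor. The log2 changes of Lgmn were -0.32 (SE 0.12, unadjusted P = 0.0211) and 0.29 (SE 0.12, unadjusted P = 0.03497). P rose above 0.05 in nonobese mice without the second (-0.23) or the third (-0.32) isotype or the third anti–PD-1 tumor (-0.29). In obese mice it did so without the second (0.22) or the third (0.27) isotype or the second (0.30) or the third (0.23) anti–PD-1 tumor. It also did so there in the fit of only the 6 tumors compared (0.30) and with a replicate block (0.29). The difference between responses was 0.61 (SE 0.17, unadjusted P = 0.00371, edgeR FDR = 0.170).

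Cst3, a secreted inhibitor that most cells make, had 150, 181 and 174 CPM in the nonobese isotype and 176, 139 and 123 CPM in the nonobese anti–PD-1 tumors, which overlapped. The obese isotype tumors had 165, 163 and 145 CPM and the obese anti–PD-1 tumors 181, 198 and 197 CPM. In obese mice every anti–PD-1 tumor was above every isotype tumor. The log2 change there was 0.28 (SE 0.13, unadjusted P = 0.0460), and P rose above 0.05 without the second nonobese anti–PD-1 tumor (0.28), the second (0.31) or the third (0.24) obese isotype tumor or the second or the third (0.27 each) obese anti–PD-1 tumor. P was also above 0.05 with a replicate block (0.29). In nonobese mice the change was -0.20 (SE 0.13), and -0.36 without the first anti–PD-1 tumor (unadjusted P = 0.00848). Under anti–PD-1 Cst3 was 1.32-fold higher in obese mice (log2 difference 0.40, unadjusted P = 0.00875, edgeR FDR = 0.257). The difference between responses was 0.49 (SE 0.18, unadjusted P = 0.0185).

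Across the 12 tumors the members formed a graded order of likeness to Ctss. Pearson's r of log2 CPM with Ctss was 0.94 for Ctsc, the 23rd highest of 13094 genes, 0.84 for Ctsh and 0.83 for Lgmn. It was 0.63 for Cst3 and 0.55 for Ctsb. For Ctsz it was 0.02, for Ctsk -0.19, and for Ctsd and Ctsl -0.22 each. All members share the libraries and their scaling, and differences between groups enter these values, so they are descriptions. Without the 2 tumors of highest Ctss, the second and the third obese anti–PD-1 tumors, r was 0.95 for Ctsc, 0.72 for Ctsh, 0.76 for Lgmn, 0.41 for Cst3 and 0.49 for Ctsb. Within the 6 tumors of each diet, r for Ctsc was 0.97 (nonobese) and 0.95 (obese), whereas r for Ctsb was 0.70 and -0.17 and r for Ctsz -0.08 and 0.72. The 8 genes most like Ctss were Entpd1, Cyp4f18, Ly6a, Ms4a6c, Cybb, Ucp2, Clec10a and Fcgr3, with r from 0.96 to 0.97. Of these, Cybb is the catalytic subunit of the phagocyte oxidase, Fcgr3 an Fc receptor and Clec10a a lectin of macrophages and dendritic cells.

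The same search was made for Ctsk and Ctsb. The 5 genes most like Ctsk were Hmgb1, Nudt4, Ilf2, Ranbp9 and Sarnp (r 0.92 to 0.95). The 5 most like Ctsb were Ppap2a, Odc1, Arpc4, Wdr70 and Sepp1 (r 0.85 to 0.90). Among the members themselves, Ctsh and Lgmn had r = 0.88, and Ctsd and Ctsz had r = 0.61 over the 12 tumors.

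**Figure D4:**
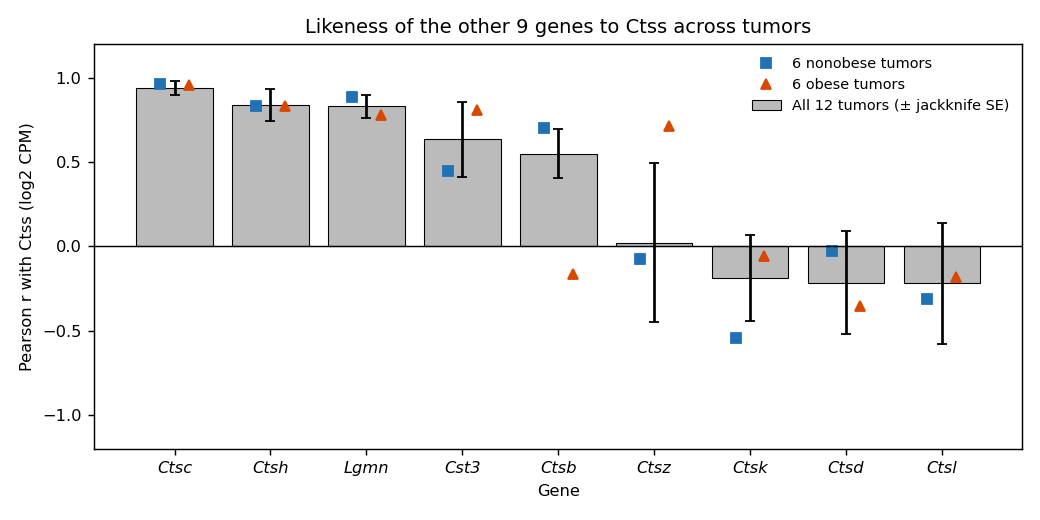
Pearson's r of log2 CPM between Ctss and each of the other 9 genes, with bars for all 12 tumors, error bars for the jackknife standard error over tumors, squares for the 6 nonobese and triangles for the 6 obese tumors. Ctsc (0.94), Ctsh (0.84) and Lgmn (0.83) are high in both diets, and Ctsb differs between them (0.70 and -0.17).

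Macrophage markers moved with Ctss. The summed level of 16 markers (among them C1qa, Cd68, Csf1r, Lyz2 and Mrc1) was 299 to 655 CPM in the nonobese isotype tumors and 198 to 282 CPM in the nonobese anti–PD-1 tumors. It was 227 to 402 CPM in the obese isotype and 324 to 683 CPM in the obese anti–PD-1 tumors. All 16 had negative changes with anti–PD-1 in nonobese mice, where 8 fell (Csf1r by 1.73 on the log2 scale), and all 16 had positive changes in obese mice, where 3 rose (Csf1r by 1.10, Laptm5 by 1.11 and Aif1 by 1.29). Of all genes tested, 2.31% fell in nonobese and 2.24% rose in obese mice. Past both thresholds between diets, 4 of the 16 were lower in obese mice under isotype, against 1.12% of genes. Under anti–PD-1, 12 were higher, against 3.69%. No marker of the list was at 0 in any tumor, and the lowest count was 3, of Cd163. Over the 12 tumors, r with the mean log2 level of these markers was 0.94 for Ctss, 0.89 each for Ctsc and Lgmn, 0.85 for Ctsh, 0.53 for Cst3 and 0.47 for Ctsb. It was 0.10 for Ctsz, -0.05 for Ctsd, -0.35 for Ctsl and -0.43 for Ctsk. With the mean of the 6 pigment-cell markers, r was 0.52 for Ctsd, 0.51 for Ctsl and -0.41 for Ctss. High r was not particular to the macrophage list. With the dendritic cell, T and NK cell and fibroblast lists described below, r of Ctsc was 0.88, 0.89 and 0.77. With these lists it was 0.75, 0.69 and 0.71 for Ctsh and 0.81, 0.65 and 0.78 for Lgmn. The part of macrophage content in the changes of the members was not tested.

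**Figure D5:**
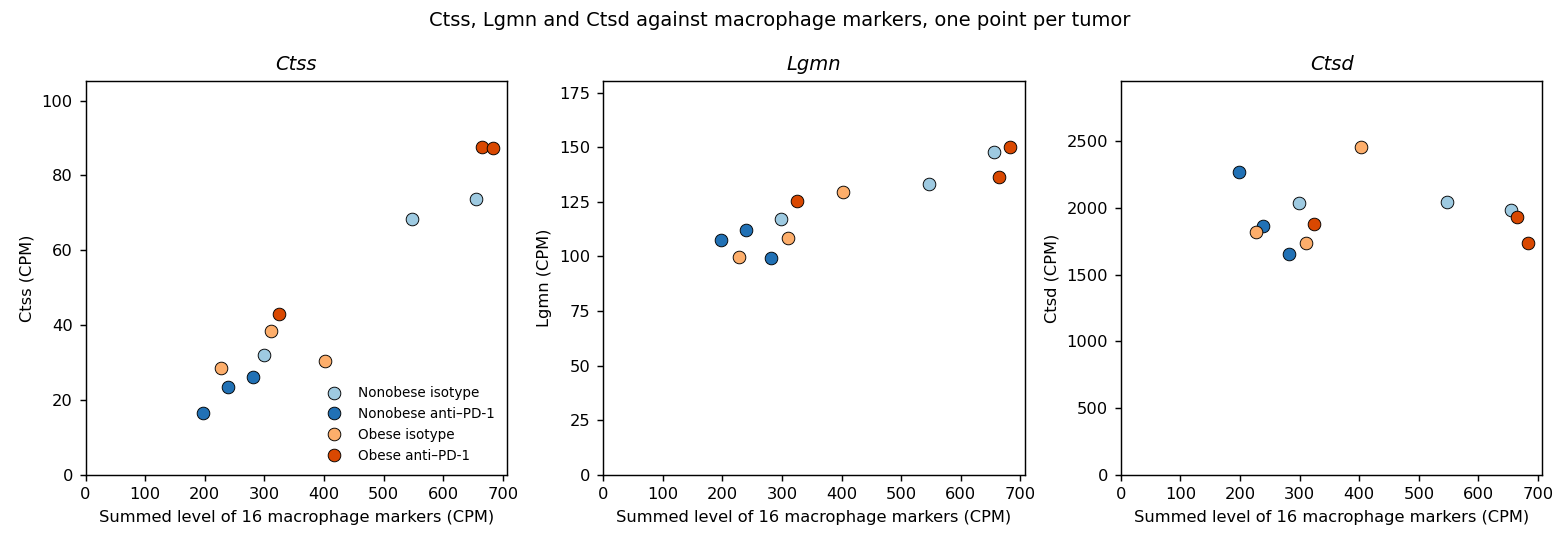
CPM of Ctss, Lgmn and Ctsd against the summed CPM of 16 macrophage markers, one point per tumor, coloured by group, with axes from 0. Ctss and Lgmn rise along the marker axis (r of log2 levels 0.94 and 0.89), while Ctsd shows no slope (-0.05).

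Markers of other cells also differed between the groups. Their counts below stand against 2.31% of all genes that fell with anti–PD-1 in nonobese and 2.24% that rose in obese mice. The 9 fibroblast markers summed to 644 to 2854 CPM in the nonobese isotype, 302 to 584 in the nonobese anti–PD-1, 220 to 1131 in the obese isotype and 442 to 1906 in the obese anti–PD-1 tumors. In nonobese mice 6 of the 9 fell with anti–PD-1, none was at 0 in any tumor, and r of their mean log2 level with Ctss was 0.83. The other cell type lists with an r above 0.5 with Ctss had 0.93 for the 4 tested dendritic cell markers, 0.86 for T and NK cells, 0.82 for adipocytes, 0.81 for the 1 tested neutrophil gene, 0.76 for endothelial cells and 0.67 for skeletal muscle. The 5 tested markers of T and NK cells, of 7 listed, were low, with sums of 1.16 to 2.704, 0.407 to 1.43, 1.01 to 1.48 and 3.53 to 10.5 CPM in the same order. In obese mice 4 of the 5 rose, and in nonobese mice 1 fell. In this list Cd3d, Cd3e, Cd3g and Ncr1 were at 0 in some tumors. Of 8 dendritic cell markers 4 were tested, of which 1 fell in nonobese and 1 rose in obese mice. Cd209a, Flt3, Siglech and Xcr1 were at 0 in at least 1 tumor. Adipocyte markers, of which all 6 rose in obese and 3 fell in nonobese mice, summed to 18.0 to 42.4, 14.2 to 23.1, 15.3 to 23.2 and 34.8 to 79.2 CPM, with Lep and Plin1 each at 0 in 1 tumor. The 6 skeletal muscle markers varied widely within groups, with sums of 15.9 to 335, 7.32 to 340, 10.5 to 126 and 38.6 to 565 CPM, and 1 of them rose in obese mice. The 6 endothelial markers summed to 158 to 188, 105 to 168, 84.6 to 154 and 115 to 191 CPM, and 1 of them fell in nonobese mice. Of the lists for B cells, neutrophils and keratinocytes only 2, 1 and 1 genes were tested, none with a summed level above 5.17 CPM, and the keratinocyte genes Krt1 and Krt10 were at 0 in every tumor. Of these, Cd79b, a B cell receptor subunit, rose in obese mice by 1.98 (0.494, 0.541 and 2.78 CPM with anti–PD-1, against at most 0.382 CPM with isotype), and the keratin Krt5, at 0 in 5 tumors, fell with anti–PD-1 in nonobese mice, from 0.625 to 5.17 CPM down to 0 to 0.155 CPM. The part of these cells in the members' changes was not tested.

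Of 27 glycosidases, lipases and other hydrolases of the lysosome, all tested, 0 passed both thresholds by edgeR in any of the 5 comparisons, and their median log2 changes with anti–PD-1 were 0.03 in nonobese and -0.01 in obese mice, against 0.02 and -0.01 over all genes. With 2.31% of all genes lower in nonobese and 2.24% higher in obese mice past the thresholds, a count of 0 among 27 is near the background. At an unadjusted P below 0.05, 1 was higher and 1 lower with anti–PD-1 in each diet. In obese mice these were Hexa, a subunit of hexosaminidase (-0.40, unadjusted P = 0.0071), and Man2b1, a mannosidase (0.29, unadjusted P = 0.0274). Under isotype, 6 were higher and 2 lower in obese mice at an unadjusted P below 0.05, against 7.11% and 6.17% of all genes, and Hexa there had a log2 difference of 0.55. Of 23 tested genes of the lysosomal membrane and proton pump, only Slc11a1, the metal transporter of phagocyte lysosomes, passed, with -1.15 in nonobese and 1.05 in obese mice. Slc11a1 levels were 6.33 to 13.6 CPM in the nonobese isotype and 3.53 to 6.11 CPM in the nonobese anti–PD-1 tumors. In the obese isotype and anti–PD-1 tumors they were 3.99 to 7.40 and 5.29 to 16.7 CPM, which overlapped. Of 11 genes that sort enzymes to the lysosome, 0 passed both thresholds or had an unadjusted P below 0.05 in either response.

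Of 10 other lysosomal proteases 8 were tested, and 2.24% of all genes rose with anti–PD-1 in obese mice. Only Ctsw, the cathepsin of cytotoxic lymphocytes, passed, with a rise of 1.79 in obese mice (unadjusted P = 0.0380), and it rested on few counts, with 2, 4 and 7 in the obese isotype and 3, 31 and 13 in the obese anti–PD-1 tumors. Ctsa, a carboxypeptidase that protects other lysosomal enzymes, had a log2 change of 0.26 there (unadjusted P = 0.0411). Of the 2 genes not tested, Ctsg, the granule protease of neutrophils, had 0 counts in every tumor, and Ctse had at most 10. Of 12 other protease inhibitors, cystatins and stefins with 2 serpins, 4 were tested (Cst6, Cstb, Serpinb1a and Serpinb6a). By edgeR 0 of them passed both thresholds or had an unadjusted P below 0.05 in any comparison, with Cstb, the cytosolic cystatin B, at -0.25 in nonobese and 0.04 in obese mice.

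Of 7 transcription factors of lysosomal genes, 2 passed both thresholds with anti–PD-1 in obese mice, against 2.24% of all genes. Irf8 and Sfpi1, the gene of PU.1, which direct myeloid cells, rose in obese mice by 1.60 and 1.16 (unadjusted P = 0.00284 and 0.0108). Irf8 levels in the obese isotype tumors were 7.32, 5.18 and 5.59 CPM and in the obese anti–PD-1 tumors 7.83, 29.1 and 18.1 CPM. In nonobese mice their changes were -0.74 and -0.99, which did not pass both thresholds. Mitf and Tfeb, which bind the lysosomal element in many cells, had log2 changes of 0.10 and -0.14 in nonobese and -0.39 and 0.21 in obese mice and did not pass the thresholds. Tfeb was lower in obese than in nonobese mice under isotype (log2 difference -0.39, unadjusted P = 0.00313).

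The MHC class II genes, whose products cathepsin S prepares for peptides, had the directions of Ctss. Of 10 genes 8 were tested, and in obese mice 7 rose with anti–PD-1, among them H2-Ab1 by 1.86, Cd74, the invariant chain, by 1.64, and H2-DMb1, a subunit of the peptide loader, by 1.10. Of all genes tested, 2.24% rose there. The median over the 8 was 1.65, against -0.01 over all genes. Their mean log2 CPM was 3.97, 3.55 and 4.01 in the obese isotype and 3.96, 5.80 and 5.53 in the obese anti–PD-1 tumors. The first anti–PD-1 tumor thus lay inside the isotype range. In nonobese mice only Cd74 fell, by 1.12 on the log2 scale, against 2.31% of all genes, and the median was -0.96. Ifi30, the thiol reductase of the same compartment, did not pass both thresholds, with -0.38 (unadjusted P = 0.0115) in nonobese and 0.26 (unadjusted P = 0.0651) in obese mice.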

How the data were processed

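Raw counts per gene, whole numbers without normalisation, were deposited by the authors for 12 tumors. Per the labels and the study's methods, libraries were stranded and poly(A)-selected, and reads of 100 bases were checked with FastQC 0.11.5, aligned to mm10 with STAR 2.7.0f and counted with HTSeq 0.9.1. The annotation release and the strand setting of the counting are not given in the sources used here, so levels of Ctsb, Ctsd and Ctsl, whose exons overlap other genes, are uncertain. Columns were matched to tumors by name, and 0 columns were left unused.

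Here, edgeR 4.0.16 in R 4.3.3 (filterByExpr, TMM, glmQLFit in its earlier form, 4 group means, 8 residual degrees of freedom, Benjamini-Hochberg adjustment over 13095 genes) gave the tests. The fit shares the spread across genes, so tests and intervals used 13.4 degrees of freedom. Each SE is the size of the log2 change divided by the square root of F. Log2 CPM used a prior count of 2. Exon lengths came from the basic transcripts of GENCODE M21, promoters and coordinates from RefSeq (GRCm38.p6, the assembly of mm10). The scripts were tested on simulated data. Intervals are 95% confidence intervals of a difference between group means, with tumors from separate mice as the replicates. They do not span the range of single tumors. Counts per tumor were 325 to 2512 for Ctss and at least 26032 for Ctsd.

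Members, gene lists and tests were chosen with earlier results of these data known. Named genes were all members, per list at most 4 genes with the smallest P in obese mice or any past the thresholds, and the genes of highest r with Ctss, Ctsk and Ctsb. Alternatives were DESeq2 1.42.0, RLE scaling, filters of at least 1 count over all tumors and of at least 10 counts in every tumor, the current form of glmQLFit, a replicate block, fits of only the tumors compared, each tumor left out, other exon lengths and, for r, another prior count. Python 3.11.15 with pandas 2.3.3 and matplotlib 3.10.9 was used for summaries and plots.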

Additional observations from a re-analysis of the deposited data

Results flagged for a closer look

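Members are given here because their response to anti–PD-1 differed between obese and nonobese mice at an unadjusted P below 0.05 in edgeR's test of the difference itself, and genes of the other lysosomal and antigen presentation lists where the difference was also above 2-fold. Each value is the obese log2 response less the nonobese one. No gene named here reached an edgeR FDR below 0.05 in the fit of all 12 tumors. In other fits of the difference, the FDR of Ctss was below 0.05 in 3 of 6 other settings and 3 of 12 fits without 1 tumor. The 3 settings were DESeq2, all genes of at least 1 count and the replicate block, whose numbers mark different mice. The FDR was also below 0.05 for Ctsc with DESeq2 (0.0331) and without the first obese anti–PD-1 tumor (edgeR, 0.0213). For Ctsh (0.0423) and Lgmn (0.0478) it was so with DESeq2. Among the cathepsins and their partners, the difference was 2.55 for Ctss, 0.99 for Ctsh, 0.85 for Ctsc, 0.61 for Lgmn and 0.49 for Cst3. In each of these 5 the response was negative in nonobese and positive in obese mice. In the fit of all 12 tumors the difference of Ctss alone was above 2-fold, and that of Ctsh crossed 2-fold in other settings (1.02 with DESeq2).

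Of the other lysosomal genes, Ctsw had a difference of 3.04 on few counts, and Slc11a1 had 2.20. Smaller differences at an unadjusted P below 0.05 went both ways, with -0.55 for Hexa, -0.52 for Gnptg and -0.49 for Aga against 0.57 for Man2b1, 0.53 for Grn and 0.38 for Ctsa. Gnptg, Aga and Grn were named after their values were seen. For the transcription factors it was 2.34 for Irf8, 2.15 for Sfpi1 and 1.89 for Tfec, and below 2-fold 0.35 for Tfeb. For the MHC class II genes it was 2.98 for H2-Ab1, 2.83 each for Ciita and H2-Aa, 2.77 for Cd74, 2.68 for H2-Eb1, 2.47 for H2-DMa and 1.34 for H2-DMb1, and below 2-fold 0.64 for Ifi30. The macrophage markers had a median difference of 1.95, with 14 of 16 past both thresholds, against 4.93% of all genes. The part of macrophage content in these values was not tested.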

How the results depend on the processing

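Ctss passed both thresholds in every alternative with anti–PD-1 in each diet, between diets under anti–PD-1 and in the difference between responses. Of 940 single-gene values, 884 kept their sign and their side of the 2 thresholds together, 12 crossed to past them and 44 changed sign. All 44 were in Ctsb, Ctsd, Ctsk, Ctsl and Ctsz, and the cause was not tested. Since only Ctss passed both thresholds in the main fit, this tally says little of stability. Some of the 884 crossed an unadjusted P of 0.05, as given for each gene above. Ctsh passed both thresholds in the difference between responses with DESeq2 (1.02), RLE (1.02), the filter of at least 10 counts (1.05) and the current glmQLFit (1.00), so members past them were 2 in each of these 4, and 1 to 3 without any 1 tumor. Under isotype, members with unadjusted P below 0.05 were 2 with DESeq2, with at least 10 counts and with only the 6 tumors compared (1 in the report), and 0 to 4 without 1 tumor, while 0 to 1 passed both thresholds. Without 1 tumor these members numbered 1 to 5 in each response to anti–PD-1.

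All genes lower in nonobese mice were 302, with 168 at the filter of at least 10 counts and 171 to 491 without 1 tumor. All genes higher in obese mice were 293, with 442 (at least 1 count), 156 (at least 10) and 187 to 555 without 1 tumor. Between diets, genes lower under isotype were 147, with 267 (at least 1), 58 (at least 10) and 53 to 366, and genes higher under anti–PD-1 were 483, with 283 (at least 10) and 310 to 690. Genes higher in the difference between responses were 645, and 391 (at least 10). Genes with an FDR below 0.05 between diets under anti–PD-1 were 50 by edgeR, 272 by DESeq2, 104 (at least 1), 87 (current glmQLFit), 0 (only 6 tumors) and 2 to 214 without 1 tumor.

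The replicate numbers mark different mice. Same-number tumors had a mean r of deviations of 0.13 over 18 pairs, 10 of them over 0.1, against -0.06 over 36 other pairs, and 5 of 12 tumors correlated best with their own number. With the replicate block, 95 genes had an FDR below 0.05 between diets under anti–PD-1, and 3 members had unadjusted P below 0.05 in obese mice, where Cst3 (log2 change 0.29) and Lgmn (0.29) missed it. The block gave a Ctsl difference under isotype of -0.00020 and a Ctsk difference under anti–PD-1 of 0.018.

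Values near 0 changed sign. The Ctsl difference under isotype was -0.015 with DESeq2, -0.016 with RLE, -0.033 at 10 counts, -0.00074 with the current glmQLFit and -0.025 with only 6 tumors. The Ctsk difference under anti–PD-1 was 0.0089 with DESeq2, 0.0080 with RLE, 0.020 at 10 counts and 0.011 with only 6 tumors. Ctsd in the difference between responses was 0.0075 at 10 counts. Without 1 tumor, the nonobese response was -0.20 to 0.010 (Ctsd), -0.052 to 0.20 (Ctsl) and -0.23 to 0.039 (Ctsz), and the obese response -0.070 to 0.0050 (Ctsb), -0.20 to 0.074 (Ctsd) and -0.44 to 0.13 (Ctsk). Differences under isotype were -0.20 to 0.067 (Ctsd) and -0.082 to 0.050 (Ctsl), and under anti–PD-1 -0.14 to 0.073 (Ctsd), -0.18 to 0.12 (Ctsk), -0.092 to 0.16 (Ctsl) and -0.18 to 0.093 (Ctsz). The difference between responses was -0.13 to 0.14 (Ctsd) and -0.083 to 0.16 (Ctsl). With 3 tumors a group, the 95% intervals of Ctsk spanned more than 1 log2 unit in each comparison.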
